A study of Rattus norvegicus with 13 samples.

Results

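The genes described here are 38 genes of glucose use in the heart. Their products carry glucose into the cell, break it down to pyruvate and lactate, store and release it as glycogen, and pass pyruvate into the mitochondrion. They were taken by symbol from a fixed pathway list, with no measured value as a rule for entry. The list was, however, chosen with earlier results of these data known. The members are 38 of the 41182 gene names that the tables of 2, 6 and 8 months list between them. The set holds 2 glucose transporters, 3 genes of hexose phosphorylation and isomerisation, 3 phosphofructokinases, 3 enzymes that make or remove fructose-2,6-bisphosphate, 10 genes of lower glycolysis, 4 genes of lactate, 8 genes of glycogen and 5 genes of pyruvate entry. The tables of 6 and 8 months list all 38 members. The 2-month table gives 34 of them, and Tpi1, Gapdh, Pkm and Ldha were not analysed at that time point. Pfkfb1, with 3 to 8 counts per library at 2 months, did not pass the filter on low counts there, which left 33 members tested at 2 months and 38 at the later times.

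Bulk RNA was measured in heart tissue of rats, in 13 libraries. Sonogenetic hearts (ST) had received AAV2/9-cTnT-MscL-G22S-mCherry, an adeno-associated virus in which the cardiac troponin T promoter, active in heart muscle cells, drives a variant of MscL, a bacterial channel that opens under mechanical force, with the fluorescent protein mCherry. WT hearts had the treatment "none", so the channel, the reporter and the virus cannot be told apart. There were 2 ST and 2 WT libraries at 2 months, 3 ST and 3 WT libraries at 6 months, and 3 ST libraries at 8 months, with no WT library of 8 months analysed here. The labels do not say whether the months are age or time since the virus, whether ultrasound was applied, or which strain and sex were used. Replicates are labelled biological, without naming the animals, so the p-values measure the spread between these samples. Time and table go together: the 8-month libraries stand in a table of their own, so the time point, the table and the sequencing run cannot be told apart in any comparison of 8 with 6 months.

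Glycolysis splits each glucose into pyruvate and yields ATP without oxygen. Its entry is set by transport, by hexokinase and by phosphofructokinase, which fructose-2,6-bisphosphate stimulates. The adult heart draws most of its energy from fatty acids and uses glucose, lactate and a glycogen store beside them, and pyruvate reaches the mitochondrion through the carrier built from Mpc1 and Mpc2 before the pyruvate dehydrogenase complex turns it into acetyl-CoA. Many steps have a form usual in striated muscle and another usual in other or fetal tissues, encoded by separate genes.

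The libraries held 11296869 and 8524352 counts in ST and 8699876 and 6539312 counts in WT hearts at 2 months, 6715215 to 8485537 counts in ST and 7020157 to 7478500 counts in WT hearts at 6 months, and 4696160 to 5573022 counts in ST hearts at 8 months. Transgene counts were 94 and 127 in ST hearts of 2 months, 767 to 1667 in ST hearts of 6 months and 610 to 1003 in ST hearts of 8 months, and 0 in all 5 WT libraries, a count that allows up to 0.459 CPM, counts scaled to library size. At 6 months, ST replicate 2 and WT replicate 1 stood apart from the others of their groups: the chi-square per degree of freedom over genes was 6.89 and 8.67 between that ST library and the others, against 1.93 between the other ST libraries, and 8.49 and 7.51 between that WT library and the others, against 2.13 between the other WT libraries. Calls of members at 6 and 8 months that change without that ST library or that WT library are given with the result. At 2 months the chi-square per degree of freedom was 12.14 between the 2 ST libraries and 7.68 between the 2 WT libraries. Heart muscle markers were present in every library, and their 8-gene sum at 6 months was 79747 to 85570 CPM in ST hearts, against 89421 to 95851 CPM in WT hearts, although only 1 of the 8 fell and 2 rose. Red cell markers summed to 693 to 771 CPM in ST hearts, against 383 to 513 CPM in WT hearts at 6 months, with all 6 tested higher, and to 303 to 396 CPM in ST hearts, against 145 to 179 CPM in WT hearts at 2 months. Fibroblast markers summed to 978 to 1041 CPM in ST hearts, against 1211 to 1290 CPM in WT hearts at 6 months, with 3 of 8 higher and 4 lower. Smooth muscle and pericyte markers summed to 642 to 798 CPM in ST hearts and 649 to 706 CPM in WT hearts at 6 months, with 5 of 8 higher and 1 lower. Skeletal muscle markers summed to 4.94 to 6.65 CPM in ST hearts and 4.65 to 6.57 CPM in WT hearts at 6 months, with Myh1, Ckmt1 and Myog at 0 in both. In bulk tissue, fewer cells of a type and less RNA per cell cannot be told apart, and the part of these marker shifts in the results below was not tested.

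Promoter sequence was found for 36 of the 38 members. The windows run from 250 bases before to 50 bases after the annotated start, in the rat assembly GRCr8 of RefSeq, and are shown 5′ to 3′ on the strand of the gene. Of the members, 4 are printed: Slc2a1 and Pfkfb3, the members that passed the test at both 2 and 6 months, and Pfkfb2 and Pgam1, which had the smallest p-values among the increases at 6 months. Capitals mark CACGTG (the E-box), ACGTG and GCGTG (cores of the hypoxia response element) and TGACG (part of the cyclic AMP response element) or their reverse complements. ACGTG lies within CACGTG, so each E-box is also counted as ACGTG.
Slc2a1, chr5:138002272-138002571, plus strand: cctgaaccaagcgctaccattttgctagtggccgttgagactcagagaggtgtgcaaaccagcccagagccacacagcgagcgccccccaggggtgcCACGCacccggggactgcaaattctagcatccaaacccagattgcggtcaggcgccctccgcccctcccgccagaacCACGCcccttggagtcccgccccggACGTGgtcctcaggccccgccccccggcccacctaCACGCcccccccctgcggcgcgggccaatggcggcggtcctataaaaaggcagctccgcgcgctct
Pfkfb3, chr17:71944683-71944982, plus strand: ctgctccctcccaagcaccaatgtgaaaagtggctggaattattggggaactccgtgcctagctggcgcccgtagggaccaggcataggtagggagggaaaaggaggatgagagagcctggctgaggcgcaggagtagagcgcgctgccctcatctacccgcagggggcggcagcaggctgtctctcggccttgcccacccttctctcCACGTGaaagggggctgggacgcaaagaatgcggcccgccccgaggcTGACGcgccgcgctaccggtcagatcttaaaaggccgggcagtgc
Pfkfb2, chr13:44726922-44727221, minus strand: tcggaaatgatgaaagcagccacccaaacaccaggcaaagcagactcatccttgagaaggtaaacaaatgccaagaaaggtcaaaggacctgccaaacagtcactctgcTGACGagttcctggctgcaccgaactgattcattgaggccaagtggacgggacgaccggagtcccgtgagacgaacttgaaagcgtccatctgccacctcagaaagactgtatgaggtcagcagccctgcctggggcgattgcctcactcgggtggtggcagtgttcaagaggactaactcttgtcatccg
Pgam1, chr1:250672902-250673201, plus strand: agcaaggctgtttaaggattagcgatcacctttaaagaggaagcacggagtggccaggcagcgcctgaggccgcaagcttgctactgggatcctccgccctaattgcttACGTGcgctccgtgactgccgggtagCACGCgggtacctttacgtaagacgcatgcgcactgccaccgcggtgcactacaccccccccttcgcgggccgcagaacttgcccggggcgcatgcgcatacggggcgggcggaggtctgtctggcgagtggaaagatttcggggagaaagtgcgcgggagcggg

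The Slc2a1 window held ACGTG 51 bases before the start and GCGTG, on the other strand, 153, 76 and 16 bases before it. The Pfkfb3 window held CACGTG 42 bases before the start and TGACG 5 bases after it. The Pgam1 window held ACGTG 141 bases and GCGTG 115 bases before the start, and Pfkfb2 held none of these and a single TGACG 141 bases before it. Over the 36 member promoters, on either strand, ACGTG was found in 44.4%, against 19.3% of all 33469 promoters of the same length, GCGTG in 18 of the 36 against 29.7% of all, CACGTG in 13.9% against 6.42%, TGACG in 30.6% against 21.2%, the full TGACGTCA in 2.78% against 1.83%, and the heat shock motif GAANNTTC in 2.78% against 8.59%. These are matches of letters in a window, not matched for base composition, and no binding was measured.

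The earliest comparison, at 2 months, asks which of these genes differed between hearts that carry the channel and untreated hearts. Of the 33 members tested, 2 passed the threshold: Slc2a1, the basal glucose transporter GLUT1, rose, and Pfkfb3, an enzyme that makes fructose-2,6-bisphosphate, fell. This is 6.06% of the members, beside 4.80% of all genes tested (2.70% higher and 2.10% lower), so the share was close to the background. The median log2 fold change of the members was -0.07, against 0.00 over all genes.

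Slc2a1 had 31.0 and 36.0 CPM in ST hearts, against 24.4 and 15.5 CPM in WT hearts. Its log2 fold change was 0.72 (SE 0.187; adjusted p = 0.0333), and the groups did not overlap. Pfkfb3 had 16.2 and 13.4 CPM in ST hearts, against 25.3 and 22.9 CPM in WT hearts, a log2 fold change of -0.70 (SE 0.169; adjusted p = 0.0246) with no overlap. Each call rested on 1 WT library and on the test: without WT replicate 2, Slc2a1 was at 0.44 (adjusted p = 0.433, the largest of its 15 alternatives, whose smallest was 5.77e-04), and without WT replicate 1, Pfkfb3 was at -0.62 (adjusted p = 0.263, the largest of its 15, whose smallest was 0.00169). Under DESeq2 neither passed, with adjusted p = 0.0778 for Slc2a1 and 0.0974 for Pfkfb3.

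The other 31 tested members lay between -0.49 and 0.26 on the log2 scale, with adjusted p of 0.106 or more. The lowest of them was Pfkp, the platelet-type phosphofructokinase, at 14.6 and 10.8 CPM in ST hearts, against 18.6 and 17.3 CPM in WT hearts (-0.49, SE 0.187, adjusted p = 0.165). Pgam2, the muscle form of phosphoglycerate mutase, had 151 and 200 CPM in ST hearts, against 221 and 256 CPM in WT hearts (-0.44, SE 0.147, adjusted p = 0.106). Both genes passed under single alternatives, Pfkp without ST replicate 1 and Pgam2 without ST replicate 2, in a fit over all groups and with no filter on low counts. Slc2a4, the insulin-responsive transporter GLUT4, had 299 and 387 CPM in ST hearts, against 314 and 385 CPM in WT hearts, so its groups overlapped. The genes of glycogen and of pyruvate entry gave no call in edgeR at this time, with log2 fold changes from -0.12 to 0.26 and from -0.20 to 0.15. None of them had an unadjusted p under 0.05, and none passed in DESeq2.

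**Figure D1:**
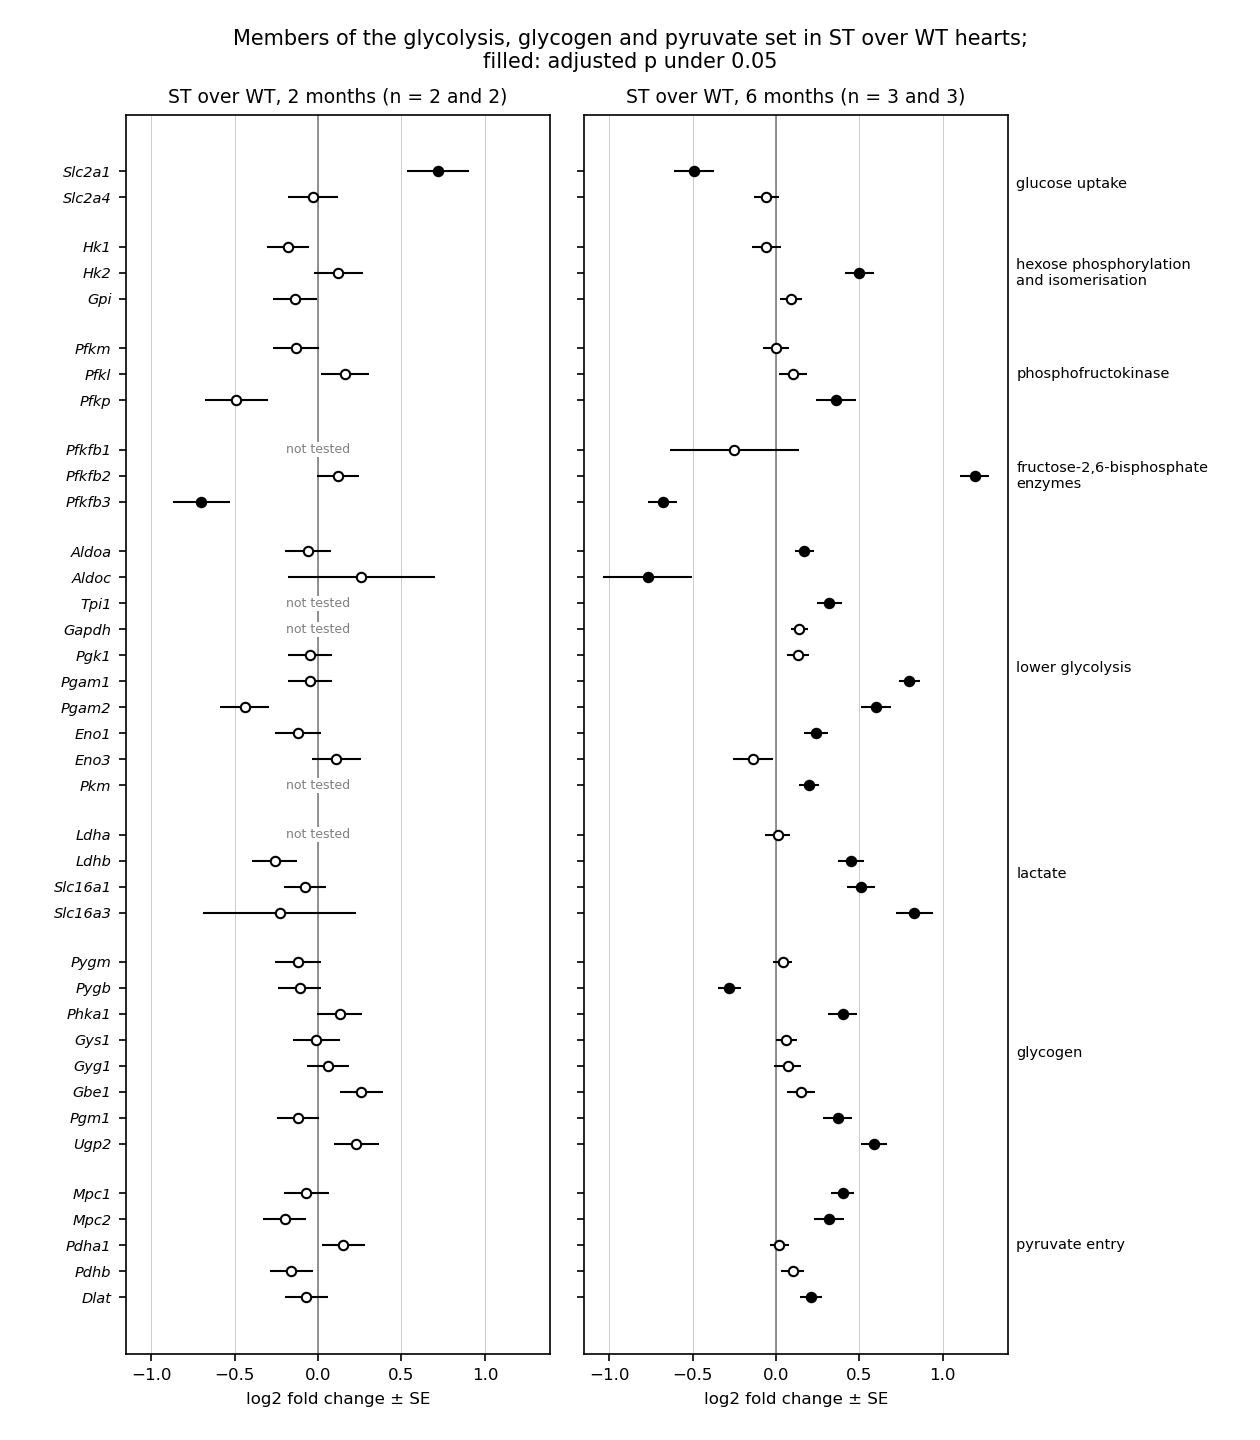
Log2 fold change ± SE of each member in ST over WT hearts at 2 months (left, 2 against 2 libraries) and 6 months (right, 3 against 3), grouped by step, with filled points for an adjusted p under 0.05. Slc2a1 lies at 0.72 at 2 months and at -0.49 at 6 months, Pfkfb3 lies at -0.70 and -0.68, and the other filled points are all at 6 months.

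At 6 months the same comparison called 22 of 38 members, 18 higher and 4 lower in ST hearts. That is 57.9% of the members, beside 40.0% of all genes tested (19.9% higher and 20.1% lower), and the members' median log2 fold change was 0.14, against 0.00 over all genes. The genes that rose included the phosphoglycerate mutases, lactate dehydrogenase B, the lactate carriers, the enzymes that make the activated glucose for glycogen, and the mitochondrial pyruvate carrier. At the entry, Slc2a1 and Pfkfb3 fell while Hk2 and Pfkfb2 rose. Without ST replicate 2 the count was 22, without WT replicate 1 it was also 22, and without ST replicate 3 it was 15. Scaled by library size alone, where the median of all genes moved by -0.115, 16 members passed, 12 higher and 4 lower, 42.1% beside 41.1% of all genes, so the share was then close to the background. Of the 22, 15 kept their call under every alternative but the minimum fold change.

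Of the glucose transporters among the members, Slc2a1 had 25.3, 19.2 and 26.9 CPM in ST hearts, against 35.6, 32.1 and 32.2 CPM in WT hearts. Every ST library lay below every WT library, and the log2 fold change was -0.49 (SE 0.121; adjusted p = 0.00747). Slc2a4 had 354 to 404 CPM in ST hearts and 368 to 412 CPM in WT hearts and gave no call (-0.06, SE 0.075). Hk2, the insulin-responsive hexokinase of muscle and heart, had 120, 109 and 125 CPM in ST hearts, against 77.3, 91.9 and 81.8 CPM in WT hearts, with no overlap and a log2 fold change of 0.50 (SE 0.085; adjusted p = 6.69e-04). Hk1, the hexokinase found in most tissues, had 228 to 291 CPM in ST and 264 to 282 CPM in WT hearts (-0.06, SE 0.087, not called). Gpi, which turns glucose-6-phosphate into fructose-6-phosphate, was at 0.09 (SE 0.065) and gave no call.

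At phosphofructokinase, the muscle gene Pfkm, with 773 to 838 CPM in ST and 726 to 856 CPM in WT hearts, was at 0.00 (SE 0.076), and the liver-type gene Pfkl was at 0.10 (SE 0.083). Neither was called. Pfkp had 29.2, 26.6 and 26.9 CPM in ST hearts, against 18.5, 21.0 and 25.0 CPM in WT hearts, and rose by 0.36 (SE 0.118; adjusted p = 0.0307). That call was lost without any 1 of 4 libraries (ST replicates 1 and 3, WT replicates 1 and 2), in DESeq2 and with library size alone, at adjusted p of up to 0.114 (smallest over its alternatives 0.0111).

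The enzymes of fructose-2,6-bisphosphate moved in opposite directions. Pfkfb2, the heart form, had 148, 160 and 136 CPM in ST hearts, against 62.9, 70.7 and 61.0 CPM in WT hearts. Its mean was 148 ± 12.3 CPM in ST and 64.9 ± 5.16 CPM in WT hearts (SD, n = 3 each), and its log2 fold change of 1.19 (SE 0.085; adjusted p = 7.96e-07) was the largest increase of the 38 members. Pfkfb3, an inducible form found in many tissues, had 25.3, 24.4 and 23.5 CPM in ST hearts, against 41.0, 39.0 and 37.2 CPM in WT hearts, and fell by 0.68 on the log2 scale (SE 0.086; adjusted p = 8.67e-05). Both pairs of groups were far apart relative to their spread. Pfkfb1, the form known from liver and skeletal muscle, had 0.738 to 2.01 CPM in ST and 1.34 to 2.19 CPM in WT hearts and gave no call.

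In lower glycolysis 6 of 10 members rose, 1 fell and 3 gave no call. Pgam1, a phosphoglycerate mutase of most tissues, had 411, 430 and 443 CPM in ST hearts, against 247, 248 and 246 CPM in WT hearts. The WT values were nearly identical and the log2 fold change was 0.80 (SE 0.063; adjusted p = 1.74e-06). Pgam2 had 523, 432 and 538 CPM in ST hearts, against 311, 320 and 355 CPM in WT hearts, with a log2 fold change of 0.60 (SE 0.090; adjusted p = 2.83e-04). Tpi1, which interconverts the triose phosphates, had 944 to 1011 CPM in ST and 698 to 829 CPM in WT hearts (0.32, SE 0.076, adjusted p = 0.00552). Smaller increases were called for Eno1 (0.24, SE 0.071), an enolase, Pkm (0.20, SE 0.060), pyruvate kinase, and Aldoa (0.17, SE 0.059), the muscle aldolase. Each of these 3 was lost with library size alone and without ST replicate 3 or WT replicate 2, Aldoa and Pkm also without ST replicate 1, and Aldoa without WT replicate 3.

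Aldoc, the brain-type aldolase, was the member that fell in this step, at 2.78, 2.34 and 1.97 CPM in ST hearts, against 3.28, 5.16 and 3.61 CPM in WT hearts (-0.77, SE 0.266, adjusted p = 0.0365). It rested on 15 to 40 counts per library, and the call was lost in DESeq2 and without any 1 of ST replicates 2 and 3 and WT replicates 2 and 3. Gapdh, an enzyme gene often used as a loading reference, had 4256, 4151 and 4300 CPM in ST hearts, against 3823, 3782 and 3970 CPM in WT hearts. The groups did not overlap, and its log2 fold change of 0.14 (SE 0.052) had an adjusted p of 0.0502. It passed under 6 of 16 alternatives, among them without ST replicate 2 (0.16), and the adjusted p over the 16 ran from 0.0217 to 0.725. Pgk1 at 0.13 and Eno3, the muscle enolase, at -0.14 gave no call. Names that look like near-identical copies took 2.23% to 3.43% of the reads of Tpi1 and its copies, 1.00% to 1.49% for Pkm, 4.62% to 5.93% for Ldha and at most 0.0254% for Gapdh at 6 months. At 2 months those of Eno1 took 3.92% to 4.29% and those of Pdha1 2.58% to 3.39%. With the copies added to each gene, 23 members passed at 6 months, Gapdh among them. Its log2 fold change stayed at 0.14, and its adjusted p moved only from 0.0502 to 0.0498. Copies were sought by name alone, so reads shared with other names are not counted. The expected counts of Gapdh were fractional in 6 of 6 libraries at 6 months.

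Of the lactate genes, 3 of 4 rose. Ldhb, the lactate dehydrogenase subunit abundant in heart, had 5071, 4114 and 5203 CPM in ST hearts, against 3521, 3445 and 3580 CPM in WT hearts (0.45, SE 0.080, adjusted p = 8.77e-04). Slc16a1, the monocarboxylate transporter MCT1, had 781, 897 and 717 CPM in ST hearts, against 532, 569 and 590 CPM in WT hearts (0.51, SE 0.085, adjusted p = 6.32e-04). Slc16a3, the transporter MCT4, known for lactate export from glycolytic cells, averaged 24.4 ± 2.25 CPM in ST hearts, against 13.8 ± 0.474 CPM in WT hearts (SD, n = 3 each; 0.83, SE 0.110, adjusted p = 1.12e-04). In all 3 genes every ST library lay above every WT library. The expected counts of Slc16a3 were fractional in 6 of 6 libraries at 6 months and 3 of 3 at 8 months. At 2 months they were fractional in 0 of 4, with 8 to 14 counts per library. Whether reads shared with other names entered the later values of Slc16a3 was not tested. Ldha, the subunit abundant in skeletal muscle, had 1053 to 1152 CPM in ST and 988 to 1166 CPM in WT hearts, so the groups overlapped (0.01, SE 0.076).

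Of the 8 glycogen genes, 3 rose, 1 fell and 4 gave no call. Ugp2, which makes UDP-glucose, had 361, 305 and 324 CPM in ST hearts, against 238, 208 and 216 CPM in WT hearts (0.59, SE 0.078, adjusted p = 1.19e-04). Pgm1, phosphoglucomutase, had 248, 204 and 249 CPM in ST hearts, against 189, 169 and 187 CPM in WT hearts (0.37, SE 0.086, adjusted p = 0.00527). Both supply the activated sugar for glycogen synthesis, and their groups did not overlap. Phka1, the muscle regulatory subunit of phosphorylase kinase, had 48.9 to 54.4 CPM in ST and 36.3 to 41.3 CPM in WT hearts (0.40, SE 0.087). Pygb, the brain-type glycogen phosphorylase, had 464 to 500 CPM in ST and 558 to 613 CPM in WT hearts (-0.28, SE 0.069, adjusted p = 0.00643). The muscle phosphorylase Pygm (0.04), the synthase Gys1 (0.06), the primer Gyg1 (0.07) and the branching enzyme Gbe1 (0.15) were not called. Without WT replicate 1, Gbe1 passed (0.25).

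At pyruvate entry 3 of 5 members rose. Mpc1 had 549, 476 and 512 CPM in ST hearts, against 395, 384 and 392 CPM in WT hearts (0.40, SE 0.069, adjusted p = 7.73e-04). Mpc2 had 284, 252 and 293 CPM in ST hearts, against 195, 234 and 236 CPM in WT hearts (0.32, SE 0.090, adjusted p = 0.0145). Both genes of the carrier were thus higher in every ST library. The Mpc2 call was lost with library size alone and without ST replicate 1 or 3, at adjusted p of up to 0.0751 (smallest over its alternatives 0.00143). Of the pyruvate dehydrogenase complex, Dlat, its acetyltransferase, rose by 0.21 (SE 0.066; adjusted p = 0.0257) and lost the call with library size alone and without any 1 of ST replicates 1 and 3 and WT replicates 2 and 3, while Pdha1 (0.02, SE 0.058) and Pdhb (0.10, SE 0.069), the subunits of its first enzyme, gave no call.

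**Figure D2:**
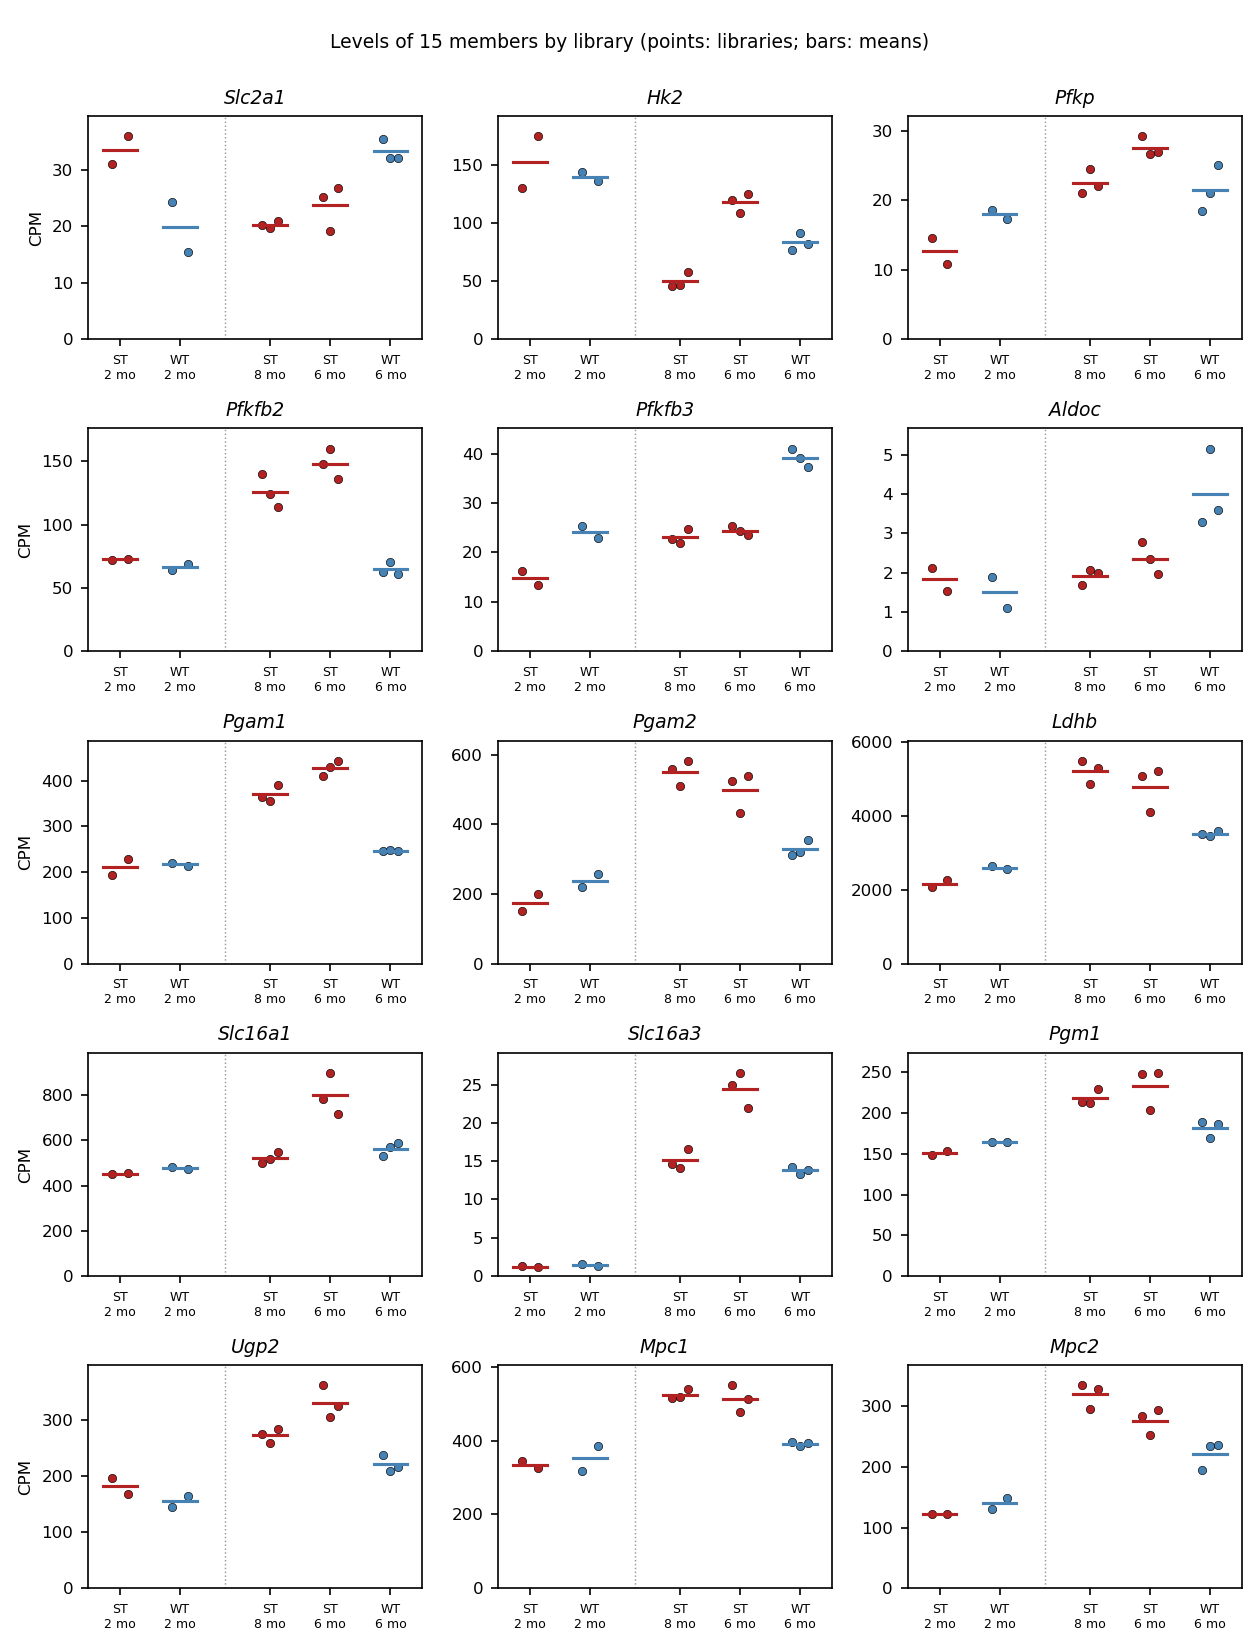
CPM of 15 members in each library (points) with the group mean (bar), ST red and WT blue. The dotted line parts the 2-month table from the later tables, between which levels are not compared. ST hearts of 6 months lie above WT hearts for Pfkfb2 (136 to 160 against 61.0 to 70.7 CPM) and Pgam1 (411 to 443 against 246 to 248 CPM), and below them for Pfkfb3 (23.5 to 25.3 against 37.2 to 41.0 CPM).

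Ratios of paired genes within a library do not depend on scaling between libraries, and 10 pairs were compared, each with the form that is less typical of adult heart over the form that is more typical of it, Ldha and Slc16a3 being known also from glycolytic skeletal muscle. They are ratios of counts, not corrected for transcript length, so only their differences between groups are read. At 6 months 7 of the 10 did not overlap between ST and WT hearts, 2 higher and 5 lower, beside 51.7% of all genes tested whose CPM did not overlap and 40.0% that were called. With 3 against 3 libraries the exact permutation test cannot go below p = 0.100, and those 7 pairs stood at that value (0.143 adjusted over the 10 pairs), so no ratio can pass the threshold. The log2 ratio of Hk1 to Hk2 was 1.14 ± 0.11 in ST and 1.71 ± 0.11 in WT hearts (SD, n = 3 each), a difference of -0.57. Ldha to Ldhb was -2.11 ± 0.13 in ST and -1.68 ± 0.13 in WT hearts, a difference of -0.43. Slc2a1 to Slc2a4 differed by -0.44, Aldoc to Aldoa by -0.90 and Pygb to Pygm by -0.32. In these 5 pairs the balance of counts lay further toward the form more typical of adult heart in ST hearts. Slc16a3 to Slc16a1 at 0.32 and Pfkp to Pfkm at 0.36 went the other way. So did the pairs that overlapped, Eno1 to Eno3 at 0.36, Pgam1 to Pgam2 at 0.20 and Pfkl to Pfkm at 0.09. The 10 pairs thus had no common direction. Expected counts at 6 months were fractional in 6 of 6 libraries for Slc16a3, and also for Aldoa, Ldha, Pygm, Eno1 and Eno3. The part of shared reads in these ratios was not tested.

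At 2 months 4 of 9 pairs did not overlap, a share close to the 48.9% of all genes tested whose CPM did not overlap, and 4.80% of all genes were called. The exact permutation test cannot go below p = 0.333 with 2 against 2 libraries. Slc2a1 to Slc2a4 was -3.34 ± 0.11 in ST and -4.15 ± 0.67 in WT hearts (SD, n = 2 each), a difference of 0.81 and opposite in sign to that of 6 months. Hk1 to Hk2 differed by -0.29, in the same direction as at 6 months. Pfkl to Pfkm at 0.31 and Pgam1 to Pgam2 at 0.40 were the other pairs without overlap.

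**Figure D3:**
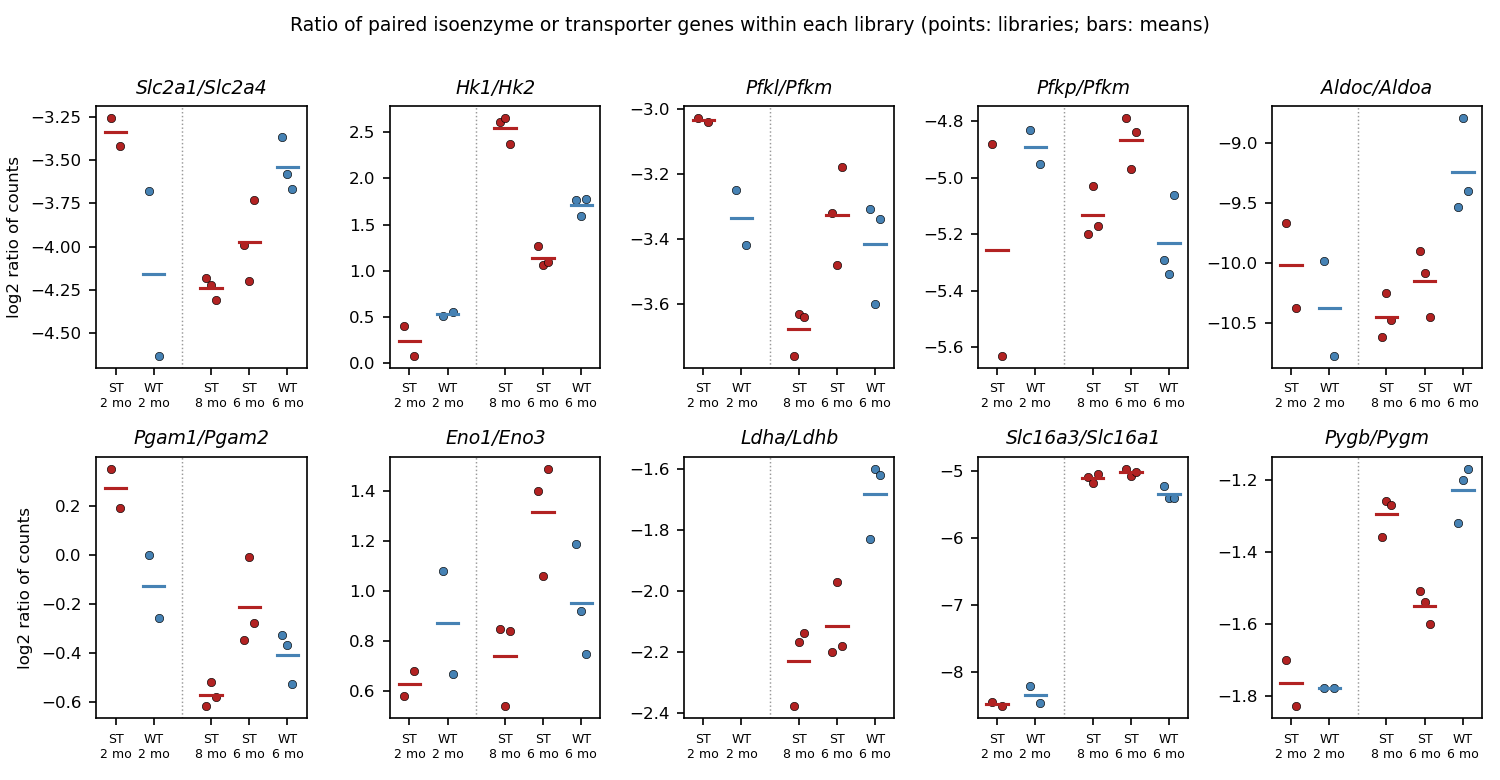
Log2 ratio of the counts of 10 gene pairs in each library (points) with the group mean (bar), ST red and WT blue. The dotted line parts the 2-month table from the later tables, and the vertical axes differ between panels. The Hk1 to Hk2 ratio averages 2.54 in ST hearts of 8 months, 1.14 in ST hearts of 6 months and 1.71 in WT hearts of 6 months.

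Whether the difference between ST and WT hearts itself changed between 2 and 6 months was tested as an interaction over the 34 members that could enter it. It passed for 10, 9 with a higher and 1 with a lower ST effect at 6 months, which is 29.4% of the members, beside 22.2% of all genes tested (10.2% higher and 12.0% lower). The members' median difference of effects was 0.22, against -0.02 over all genes. The 2 time points stand in separate tables, so time, table and run cannot be told apart here either. Slc2a1 was the member with the lower effect: it was higher in ST hearts at 2 months and lower at 6 months, a difference of -1.21 (SE 0.235; adjusted p = 0.00178). Pfkfb2 (1.06), Pgam2 (1.03), Pgam1 (0.84), Pfkp (0.83), Ldhb (0.70), Slc16a1 (0.57), Mpc2 (0.51), Pgm1 (0.48) and Mpc1 (0.45) had the higher effect at 6 months. Pfkfb3 differed by 0.01 (SE 0.167; adjusted p = 0.978), being lower in ST hearts at both times. At 2 months none of those 9 was called, with folds of ST over WT from 0.713 to 1.09: Pfkfb2 had 72.0 and 73.1 CPM in ST and 64.5 and 69.0 CPM in WT hearts, Pgam1 had 193 and 228 CPM in ST and 221 and 214 CPM in WT hearts, and Ldhb had 2072 and 2261 CPM in ST and 2632 and 2556 CPM in WT hearts. Mpc1, Mpc2, Pgm1 and Pfkp lost the call when single libraries were left out, among them WT replicate 1 of 2 months for Pgm1 and Pfkp (adjusted p = 0.0740 and 0.0702) and WT replicate 2 of 2 months for Mpc1, Mpc2 and Pgm1 (adjusted p = 0.150, 0.103 and 0.0579).

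At 8 months ST hearts were set against ST hearts and against WT hearts of 6 months. These comparisons share libraries with each other and with the comparison at 6 months, so a gene's values in them are not independent. Against ST hearts of 6 months, 3 members were higher and 11 lower, 36.8% of the 38, beside 39.6% of all genes tested (19.1% higher and 20.5% lower), so the share was near the background. The median was -0.05, against 0.02 over all genes. With library size alone the split was 5 higher and 9 lower. Against WT hearts of 6 months, 14 members were higher and 6 lower, 52.6% of the 38, beside 33.9% of all genes tested (17.8% higher and 16.1% lower), with a median of 0.08 against -0.01 over all genes. With library size alone that split was 13 higher and 9 lower. The lower calls at 8 against 6 months included hexokinase 2, the lactate carriers and an enolase, and the higher calls against WT hearts included the phosphoglycerate mutases, Ldhb and the pyruvate carrier.

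Hk2 had 45.6, 47.1 and 58.0 CPM in ST hearts of 8 months, against 120, 109 and 125 CPM in ST hearts and 77.3, 91.9 and 81.8 CPM in WT hearts of 6 months. It lay below both groups in every library, with log2 fold changes of -1.23 (SE 0.092; adjusted p = 4.78e-07) against ST and -0.72 (SE 0.098; adjusted p = 3.53e-05) against WT hearts of 6 months. Slc16a1 had 499, 516 and 549 CPM in ST hearts of 8 months, -0.62 (SE 0.077) against ST and -0.10 (SE 0.066, not called) against WT hearts of 6 months. Slc16a3 had 14.6, 14.1 and 16.6 CPM, -0.70 (SE 0.120) against ST and 0.14 (SE 0.124, not called) against WT hearts of 6 months. Both lactate carriers were thus lower than in ST hearts of 6 months, for Slc16a3 on counts that were fractional at both times. Against WT hearts, Slc16a1 passed as lower without WT replicate 1 (-0.15, adjusted p = 0.0420) and with library size alone (-0.17, adjusted p = 0.0437), and its adjusted p ranged up to 0.559 over the alternatives. Eno1 had 691 to 756 CPM in ST hearts of 8 months, against 917 to 1056 CPM in ST and 804 to 863 CPM in WT hearts of 6 months (-0.44, SE 0.063 and -0.19, SE 0.063). The call against WT hearts was lost without any 1 of ST replicates 1 and 2 of 8 months and WT replicate 3. Phka1 at 32.8 to 41.1 CPM was lower than in ST hearts of 6 months (-0.48, SE 0.094) and gave no call against WT hearts (-0.08, SE 0.100). Pfkl (-0.37, SE 0.079) and Gys1 (-0.24, SE 0.063), neither called in ST over WT hearts at 6 months, were also lower than in ST hearts of 6 months. Ugp2 had 274, 259 and 283 CPM in ST hearts of 8 months. It was lower than in ST hearts (-0.28, SE 0.069, adjusted p = 0.00604) and higher than in WT hearts of 6 months (0.31, SE 0.068). Without ST replicate 2 of 6 months, Pgm1 (-0.18), Dlat (-0.19), Eno3 (0.23) and Pygb (0.18) passed against ST hearts of 6 months and Mpc2 no longer did. Without WT replicate 1, Gys1 (-0.19), Pygb (-0.17) and Gbe1 (0.19) passed against WT hearts of 6 months.

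Other members stayed above WT hearts of 6 months. Pfkfb2 had 140, 124 and 114 CPM in ST hearts of 8 months, against 136 to 160 CPM in ST and 61.0 to 70.7 CPM in WT hearts of 6 months, with 0.97 (SE 0.086; adjusted p = 3.99e-07) over WT hearts. Its call against ST hearts of 6 months (-0.24, SE 0.087, adjusted p = 0.0438) was lost without any 1 of 4 libraries (ST replicates 1 and 2 of 6 months, ST replicates 2 and 3 of 8 months), at adjusted p from 0.00432 to 0.171 over its alternatives. Pgam1 had 364, 356 and 390 CPM and Pgam2 560, 510 and 582 CPM in ST hearts of 8 months, 0.59 (SE 0.063) and 0.76 (SE 0.072) over WT hearts of 6 months. Against ST hearts of 6 months, Pgam1 was lower (-0.21, SE 0.059, adjusted p = 0.0121) and Pgam2 was not called (0.14, SE 0.079). The lower call of Pgam1 was lost without ST replicate 2 of 8 months (adjusted p = 0.0623). Ldhb had 5490, 4873 and 5288 CPM, 0.58 (SE 0.056) over WT hearts. Mpc1 had 516, 518 and 539 CPM and Mpc2 334, 295 and 329 CPM, 0.44 (SE 0.060) and 0.54 (SE 0.081) over WT hearts. These 6 genes, grouped here because they stayed above WT hearts, were called over WT hearts, beside 33.9% of all genes tested. None had a library of 8 months within the WT range. The share of all genes without overlap is not given for this comparison. The 6 genes were also picked as high, so nothing is read from their lack of overlap. Pgk1, phosphoglycerate kinase, had 761, 769 and 812 CPM in ST hearts of 8 months, against 651 to 672 CPM in ST and 566 to 635 CPM in WT hearts of 6 months, and was higher than both (0.24, SE 0.052 and 0.38, SE 0.066). Gyg1, the protein primer of glycogen, had 180, 189 and 204 CPM, against 143 to 173 CPM in ST and 145 to 162 CPM in WT hearts of 6 months (0.25, SE 0.078 and 0.33, SE 0.069), though the first of these calls was lost without ST replicate 2 or 3 of 8 months.

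Of the 4 genes lower in ST hearts at 6 months, Slc2a1, Pfkfb3 and Aldoc were also lower in ST hearts of 8 months than in WT hearts of 6 months. Pygb was not called there, at 496 to 585 CPM in ST hearts of 8 months, against 558 to 613 CPM in WT hearts of 6 months (-0.12, SE 0.072). Aldoc had 1.70, 2.07 and 2.00 CPM in ST hearts of 8 months (-1.04, SE 0.297, adjusted p = 0.0124 over WT hearts), and lost the call without WT replicate 2 and in DESeq2. Slc2a1 had 20.3, 19.8 and 20.9 CPM and Pfkfb3 22.7, 21.9 and 24.7 CPM in ST hearts of 8 months, -0.70 (SE 0.100) and -0.74 (SE 0.096) over WT hearts of 6 months, and neither was called against ST hearts of 6 months (-0.22, SE 0.131 and -0.08, SE 0.100). Without ST replicate 2 of 6 months, Slc2a1 passed in that comparison (-0.36, adjusted p = 0.0164, with 0.515 the largest over its alternatives). Of the 18 members higher in ST over WT hearts at 6 months, 9 were lower, 1 higher and 8 not called in ST hearts of 8 over 6 months, and 11 were higher, 2 lower and 5 not called in ST hearts of 8 months over WT hearts of 6 months. The 2 lower ones were Hk2 and Eno1. The copies of Pkm took 4.17% to 4.39% of the reads in the 8-month table, against 1.00% to 1.49% in the 6-month table, and those of Tpi1 4.41% to 4.52% against 2.23% to 3.43%. With the copies added, 14 and 20 members passed in the comparisons with ST and WT hearts. Of the paired ratios, Hk1 to Hk2 was 2.54 ± 0.15 in ST hearts of 8 months, against 1.14 ± 0.11 in ST and 1.71 ± 0.11 in WT hearts of 6 months, and Eno1 to Eno3 was 0.74 ± 0.17, against 1.32 ± 0.23 in ST and 0.95 ± 0.22 in WT hearts of 6 months (SD, n = 3 each). The sum of heart muscle markers was 91731 to 94492 CPM in ST hearts of 8 months, against 79747 to 85570 CPM in ST and 89421 to 95851 CPM in WT hearts of 6 months. The sum of endothelial markers was 1113 to 1223 CPM in ST hearts of 8 months, against 866 to 1050 CPM in ST and 759 to 967 CPM in WT hearts of 6 months. Macrophage markers summed to 105 to 120 CPM in ST hearts of 8 months, against 134 to 187 CPM in ST and 141 to 183 CPM in WT hearts of 6 months, with 4 of 8 lower and 0 higher in both comparisons. Smooth muscle and pericyte markers gave 0 of 8 called against ST hearts of 6 months, and 4 of 7 higher and 1 lower against WT hearts of 6 months. The part of these marker shifts in the results was not tested.

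**Figure D4:**
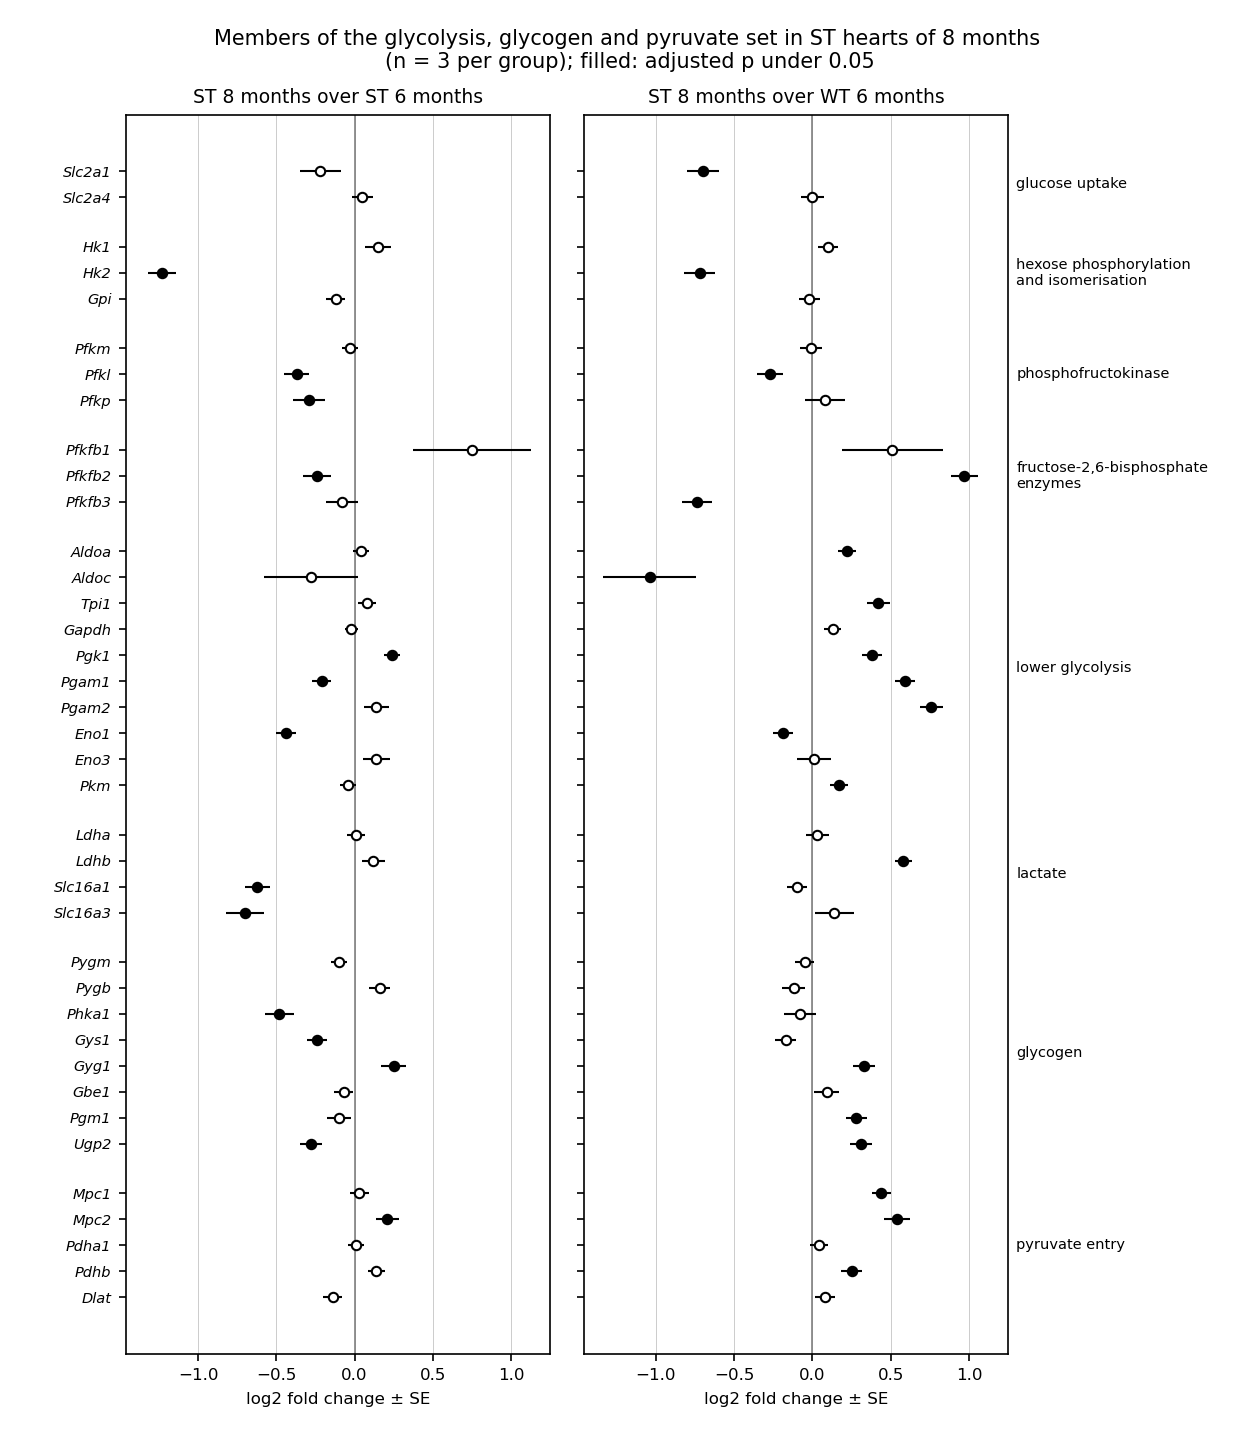
Log2 fold change ± SE of each member in ST hearts of 8 months over ST hearts of 6 months (left) and over WT hearts of 6 months (right), 3 libraries a group, with filled points for an adjusted p under 0.05. Hk2 lies lowest on the left at -1.23 and Pfkfb2 highest on the right at 0.97.

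The neighbouring pathways were described by 99 further genes in 4 lists. Over all 99, 12 of 84 tested were higher and 1 lower in ST over WT hearts at 2 months, 15.5% beside 4.80% of all genes. Without ST replicate 2 of 2 months, 28 of these genes passed, 17 higher and 11 lower, in a fit that called 16.1% of all genes. At 6 months 24 of 87 were higher and 20 lower, 50.6% beside 40.0% of all genes. In ST hearts of 8 over 6 months 10 were higher and 28 lower, 43.7% beside 39.6% of all genes, and over WT hearts of 6 months 20 were higher and 25 lower, 51.7% beside 33.9% of all genes. The list of glucose uptake signalling and regulators held most of the calls of 2 months, 7 higher and 1 lower of 26, 30.8%, while the 35 other glycolysis, glycogen and pyruvate genes tested gave 2, 5.71%. The lists were chosen with earlier results of these data known, and the list of regulators includes Irs2, Nr4a1 and Nr4a3. Their shares beside those of all genes are therefore not independent of that choice.

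Regulators of pyruvate dehydrogenase gave 1 of 7 higher at 2 months, and 1 higher and 2 lower at 6 months, 14.3% beside 4.80% and 42.9% beside 40.0% of all genes. Pdk4, the kinase that shuts the complex, had 355 and 417 CPM in ST hearts, against 101 and 103 CPM in WT hearts at 2 months, and 768, 1037 and 867 CPM in ST hearts, against 132, 110 and 97.4 CPM in WT hearts at 6 months. In ST hearts of 8 months it had 320, 285 and 307 CPM, 1.44 (SE 0.090) over WT hearts of 6 months. Pdp2, a phosphatase that reopens the complex, fell by 0.34 on the log2 scale (SE 0.078; adjusted p = 0.00431) at 6 months. The subunits Pdha1 and Pdhb gave no call in ST over WT hearts at 2 or 6 months. Pdhb was higher in ST hearts of 8 months over WT hearts of 6 months (0.25, SE 0.069). That call was lost without ST replicate 3 of 8 months. The subunits Pdhx and Dld averaged 167 ± 15.1 and 680 ± 29.4 CPM in ST, against 106 ± 3.17 and 571 ± 8.63 CPM in WT hearts at 6 months (SD, n = 3 each). At 2 months both averaged less in ST hearts, 86.5 against 116 CPM and 339 against 391 CPM.

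In the branches of glycolysis the largest changes were in the hexosamine route, which makes UDP-N-acetylglucosamine for protein glycosylation. Gfpt2, which starts that route from fructose-6-phosphate, had 33.4 and 27.4 CPM in ST hearts, against 16.4 and 16.6 CPM in WT hearts at 2 months (0.89, SE 0.165, adjusted p = 0.00394). At 6 months it had 107, 128 and 134 CPM in ST hearts, against 15.7, 17.7 and 17.8 CPM in WT hearts (2.85, SE 0.107, adjusted p = 3.57e-09). In ST hearts of 8 months it had 11.4, 11.7 and 11.8 CPM, below ST hearts of 6 months (-3.40, SE 0.114) and WT hearts of 6 months (-0.54, SE 0.126). Uap1, which completes the route, had the same order of groups: 86.3 and 65.6 CPM in ST, against 42.6 and 28.1 CPM in WT hearts at 2 months (1.09, SE 0.180), and 275 to 295 CPM in ST, against 49.7 to 55.5 CPM in WT hearts at 6 months (2.42, SE 0.074). At 8 months it had 42.0, 43.5 and 48.2 CPM (-2.67, SE 0.073 against ST and -0.24, SE 0.088 against WT hearts of 6 months). The last of these calls had an adjusted p of 0.0411 and was lost in DESeq2, in a fit over all groups and without any 1 of ST replicates 1 and 2 of 8 months and WT replicates 2 and 3 of 6 months (adjusted p from 0.0105 to 0.148 over its alternatives). Of the 16 genes of the pentose phosphate, hexosamine and polyol branches, these 2 were the only ones called at 2 months, and at 6 months Tkt and Ogt fell beside them, 25.0% of the 16 called against 40.0% of all genes.

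Among the regulators, Irs2, an adaptor of the insulin receptor, had 234 and 228 CPM in ST hearts, against 46.1 and 47.7 CPM in WT hearts at 2 months (2.30, SE 0.133). At 6 months it had 410, 447 and 414 CPM in ST, against 31.1, 30.2 and 29.0 CPM in WT hearts (3.82, SE 0.076), and ST hearts of 8 months had 91.3, 91.4 and 97.1 CPM (1.64, SE 0.078 over WT hearts of 6 months). Nr4a1 and Nr4a3, nuclear receptors encoded by early response genes, were at 187, 222 and 185 CPM and at 194, 262 and 193 CPM in ST hearts of 6 months, against 8.35, 6.20 and 7.76 CPM and 3.28, 4.13 and 3.48 CPM in WT hearts.

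In glycogen control the targeting subunits of protein phosphatase 1 went different ways at 6 months. Ppp1r3d had 32.3, 36.9 and 37.7 CPM in ST hearts, against 90.4, 85.4 and 83.6 CPM in WT hearts (-1.27, SE 0.082, adjusted p = 3.31e-07). Ppp1r3c had 268, 235 and 253 CPM in ST hearts, against 154, 151 and 141 CPM in WT hearts (0.77, SE 0.071, adjusted p = 6.94e-06). Neither was called at 2 months. Phkg1, the muscle catalytic subunit of phosphorylase kinase, changed sign: 8.81 and 7.66 CPM in ST, against 3.68 and 3.61 CPM in WT hearts at 2 months (1.18, SE 0.261, adjusted p = 0.0144), and 13.3, 19.8 and 11.3 CPM in ST, against 31.6, 39.5 and 39.8 CPM in WT hearts at 6 months (-1.31, SE 0.174, adjusted p = 1.16e-04). The call at 2 months was lost without ST replicate 1 or WT replicate 1 and in DESeq2 (adjusted p from 4.76e-04 to 0.0940 over its alternatives). The difference between those effects was -2.50 (SE 0.332; adjusted p = 7.55e-05). Glucose transporters outside the members went different ways at 6 months. Slc2a3 averaged 32.2 ± 3.30 CPM in ST, against 13.7 ± 1.92 CPM in WT hearts (SD, n = 3 each), opposite in direction to Slc2a1. At 2 months Slc2a3 averaged 9.91 CPM in ST, against 6.27 CPM in WT hearts. Slc2a8 had a lower mean in ST hearts (5.49 ± 0.614 CPM) than in WT hearts at 6 months. Slc2a12, a further glucose transporter, had 21.3 CPM in both ST libraries, against 11.7 and 14.4 CPM in WT hearts at 2 months (0.72, SE 0.175, adjusted p = 0.0252), and gave no call at 6 months (0.09, SE 0.109). Its call at 2 months was lost without WT replicate 1 (0.57, adjusted p = 0.412, with 0.00176 the smallest over its alternatives) and in DESeq2 (adjusted p = 0.119).

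**Figure D5:**
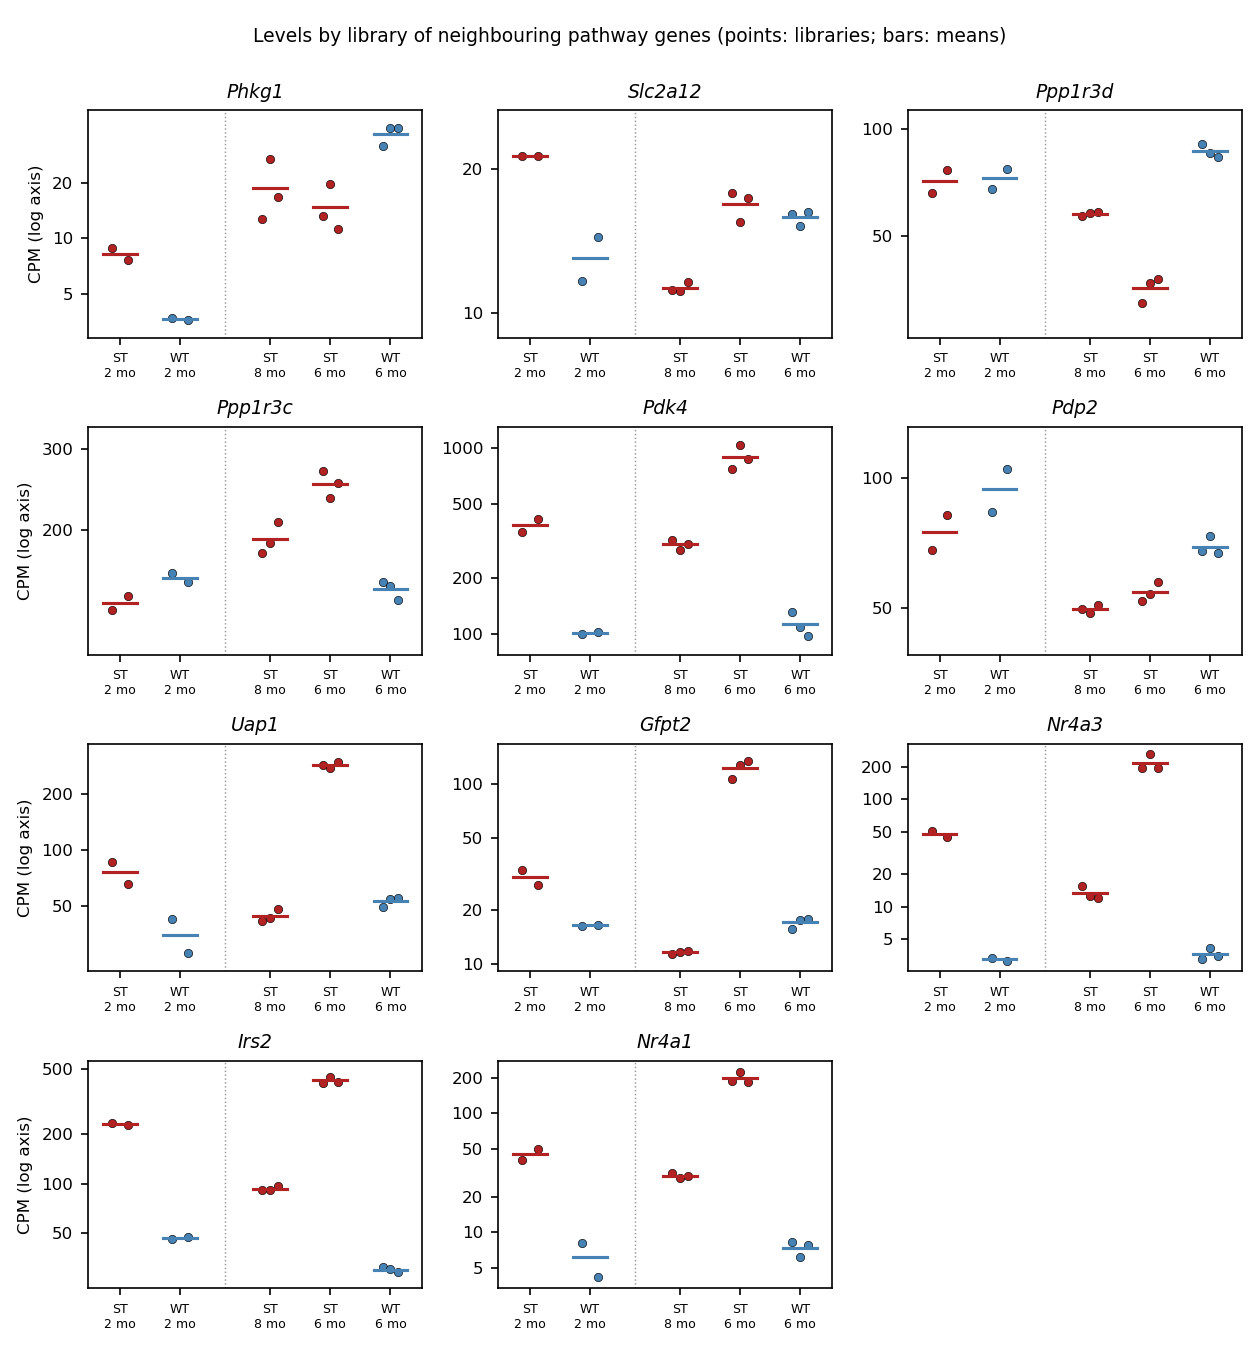
CPM on a log axis of 11 neighbouring pathway genes in each library (points) with the group mean (bar), ST red and WT blue. The dotted line parts the 2-month table from the later tables, between which levels are not compared. Gfpt2 lies at 107 to 134 CPM in ST hearts of 6 months, against 15.7 to 17.8 CPM in WT hearts of 6 months, and at 11.4 to 11.8 CPM in ST hearts of 8 months.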

How the data were processed

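Gene tables of bulk RNA from 13 rat heart libraries were used, with the expected counts per gene as deposited by the authors and not scaled between libraries. GRCm38 and mm10, both mouse builds, appear in the submitters' processing notes, while the names are rat symbols. Tool, annotation and strand are not given in the sources used here, and without strand, reads of overlapping genes cannot be told apart. Counts were rounded to whole numbers, filtered with filterByExpr, scaled by TMM and tested on the whole table with edgeR 4.0.16 (quasi-likelihood F test, two-sided, R 4.3.3). P-values were adjusted by Benjamini-Hochberg over all genes tested, with a threshold of 0.05, and this threshold is meant by a gene that rose, fell, was called or passed. The SE given is the size of the log2 fold change over the root of its F statistic. For CPM, TMM factors were computed for the libraries of 2 months alone and for those of 6 and 8 months together. Gene lengths were not given, so levels are not compared between genes. Ratios of paired genes used a pseudocount of 0.5 counts.

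Alternatives were DESeq2 1.42.0, limma 3.58.1 (voom), other scalings and filters, a minimum fold change of 1.5, mitochondrial and haemoglobin genes left out, a fit over all groups, a block for replicate number, each library left out, and near-identical copies added to their gene, the last chosen after seeing the data. The fits were tested on simulated data. Of simulated 1.5-fold changes, 31.3% were recovered at 2 months and 62.7% at 6 months. For ST hearts of 8 months it was 47.8% against ST and 64.2% against WT hearts of 6 months. False calls were 4.93%, 5.52%, 4.46% and 9.34% of the calls in these 4 comparisons, in that order. The last of these lay above the threshold of 5%. Members that passed in ST over WT hearts at an absolute log2 fold change of at least 0.5 were given by library at 6 months. Members that passed the interaction were given in the same way, and other members where a step needed them. Library values of 2 and 8 months are given in the text for some of these members only. Of the neighbouring genes, the 2 with the smallest p of each list and each ST over WT comparison were named. Tkt, Ogt, Pdhx, Dld, Slc2a3 and Slc2a8 were added after their values were seen. Members and lists were chosen with earlier results of these data known.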

Additional observations from a re-analysis of the deposited data

Results flagged for a closer look

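The difference between ST and WT hearts was not the same at 2 and at 6 months for 10 members, by the interaction test over both times (edgeR quasi-likelihood test, Benjamini-Hochberg adjustment). Each value is the log2 ST effect at 6 months minus that at 2 months. For the transporter Slc2a1 it was -1.21 (adjusted p = 0.00178), with ST hearts higher at 2 months and lower at 6 months. For the fructose-2,6-bisphosphate enzyme Pfkfb2 it was 1.06 (adjusted p = 6.76e-05) and for the phosphofructokinase Pfkp 0.83 (adjusted p = 0.0117). For the phosphoglycerate mutases it was 1.03 in Pgam2 (adjusted p = 5.92e-04) and 0.84 in Pgam1 (adjusted p = 2.10e-04). For Ldhb it was 0.70 (adjusted p = 0.00119) and for the lactate carrier Slc16a1 0.57 (adjusted p = 0.00646). For the pyruvate carrier it was 0.51 in Mpc2 (adjusted p = 0.0209) and 0.45 in Mpc1 (adjusted p = 0.0240), and for Pgm1 it was 0.48 (adjusted p = 0.0209). The estimates had opposite signs for Slc2a1, Pfkp, Pgam1, Pgam2, Ldhb, Slc16a1, Pgm1, Mpc1 and Mpc2, although of these only Slc2a1 was called at 2 months. At 2 months Pgam1 (-0.05, SE 0.131), Mpc1 (-0.07, SE 0.134), Slc16a1 (-0.08, SE 0.125) and Pgm1 (-0.12, SE 0.124) were smaller than their SE. Their sign at that time is therefore not determined. Over the alternatives of 2 months, Pgam1 ran from -0.18 to 0.06 and Mpc1 from -0.20 to 0.07. No group had 4 or more libraries, so single libraries were not screened for a gap to the others.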

How the results depend on the processing

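At 2 months, where edgeR called 2 of 33 members, DESeq2 called 0, with 4 at an unadjusted p under 0.05 in both tools. Leaving out 1 library gave 1 to 3 calls there, 1 without either WT replicate and 3 without either ST replicate. With a fold change of at least 1.5 required, 7 members passed in ST over WT hearts at 6 months (18.4%, beside 2648 of all 13253 genes), 3 in ST hearts of 8 over 6 months (7.89%, beside 17.8%), 7 over WT hearts of 6 months (18.4%, beside 13.2%) and 6 in the interaction (17.6%, beside 17.3%). These drops follow from the fold required. Every other setting kept the counts of members within 1.5 times. Leaving out 1 library gave 15 to 22 calls at 6 months, 10 to 17 in ST hearts of 8 over 6 months, 17 to 24 over WT hearts of 6 months and 7 to 14 in the interaction, with 7 without WT replicate 2 and 14 without ST replicate 2 of 2 months. No called member changed direction. Of the members called, 0 of 2 at 2 months, 15 of 22 at 6 months, 9 of 14 and 15 of 20 at 8 months and 6 of 10 in the interaction passed under every alternative but the minimum fold. Where a group kept 1 library, that library was assumed to vary like the others.

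The libraries were treated as sharing only a replicate number, since same-numbered libraries had correlations of their deviations from 0.00390 to 0.178 and not every pair was above 0.1. Every library correlated best with its own number in ST over WT hearts at 2 months (4 of 4) and in ST hearts of 8 over WT hearts of 6 months (6 of 6), while 2 of 6 did so in ST over WT hearts at 6 months and 3 of 6 in ST hearts of 8 over 6 months. With 2 libraries a group, deviations from the mean mirror each other, so the correlations at 2 months were all 0.0712 or -0.0712. The 4 of 4 there is thus a single result and cannot show pairing. These are hints from the data, not from the design. With the replicate block, 2 members passed at 2 months, 22 at 6 months, 16 in ST hearts of 8 over 6 months, 22 over WT hearts of 6 months and 10 in the interaction. With 2 or 3 libraries a group and 7 to 40 counts for Aldoc, small changes of the low members were not detectable at this depth.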
